A study of Mus musculus with 15 samples.

Results

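T cell receptor beta chains that end in the joining segments TRBJ2-1, TRBJ2-2, TRBJ2-3 and TRBJ2-5 made up 22915 of 59364 beta clonotypes (38.6%) in 15 libraries from non-obese diabetic (NOD) mice. A clonotype is 1 row of a library's table, a V family together with 1 nucleotide sequence of the third complementarity-determining region (CDR3). Members were rows with a TRBV family, a J gene of the TRBJ2 cluster and a CDR3 whose residues end in EQFF for TRBJ2-1, QLYF for TRBJ2-2, ETLYF for TRBJ2-3 or TQYF for TRBJ2-5. The tables name the J cluster but not the segment, so the residues decide it. TRBJ2-1 had 7889 clonotypes, TRBJ2-5 had 6518, TRBJ2-3 had 4713 and TRBJ2-2 had 3795.

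All mice were 125 days old and of the NOD strain, which develops autoimmune diabetes, and all cells came from peripheral lymphoid organs (spleen and non-draining lymph nodes, pooled per mouse). Groups were TET cells of Ifngr1-mutant mice (4 libraries, called mutant TET), TET cells of wild-type mice (3 libraries, WT TET), CD8 cells of the mutant mice (4 libraries, mutant CD8) and CD8 cells of the wild-type mice (4 libraries, WT CD8). TET cells are CD8 T cells held by a tetramer of the MHC molecule H-2Kd with a peptide of IGRP, a beta cell protein that NOD CD8 T cells attack. CD8 cells are the CD8+CD44+ cells that did not bind the tetramer, taken from its flow-through. Ifngr1 encodes the chain of the interferon-gamma receptor that binds the cytokine. Another WT TET library was not analysed here. The tables hold receptor sequences and no other transcripts, so neither the mutated gene nor marker genes of the sorted cells could be checked.

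A beta chain is assembled in the thymus by joining 1 V, 1 D and 1 J gene segment, with bases trimmed from each end and random bases added between them. The J segment supplies the last residues of the CDR3, the loop that lies over the peptide in the MHC groove. In the mouse, the TRBJ2 segments lie behind Trbd2 in the order Trbj2-1, Trbj2-2, Trbj2-3, Trbj2-4, Trbj2-5, the pseudogene Trbj2-6 and Trbj2-7, per the RefSeq gene table (GRCm38.p6). Trbd1 lies upstream of the TRBJ1 cluster and can join to either cluster.

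The bases that each segment adds to the CDR3 show where the 4 classes differ. The stretch below is the most frequent base at each place, counted back from the 3′ end over all CD8 clonotypes of the segment. It ends before the first place where that base differs from the most frequent base of clonotypes matching all places nearer the 3′ end.
TRBJ2-1: actatgctgagcagttcttc
TRBJ2-2: aaacaccgggcagctctacttt
TRBJ2-3: agtgcagaaacgctgtatttt
TRBJ2-5: ccaagacacccagtacttt
The whole stretch was kept in 37.8% of TRBJ2-1, 44.8% of TRBJ2-2, 45.2% of TRBJ2-3 and 44.4% of TRBJ2-5 CD8 clonotypes. The others lacked 1 or more of its bases. A segment called from the last 12 bases of the CDR3 in place of the residues moved 9 members elsewhere and added 519 clonotypes, of which 185 went to TRBJ2-3. A TRBJ2-3 receptor trimmed past the glutamate of ETLYF was not a member under the residues, and 542 TRBJ2 clonotypes ended in TLYF with neither ETLYF nor NTLYF.

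Libraries held 2536 to 60164 counts. Mutant TET libraries held 393 to 2199 clonotypes, WT TET libraries 97 to 126, and CD8 libraries 2040 to 9827. The 4 segments together therefore rested on 121 to 705 clonotypes per mutant TET library, 33 to 40 per WT TET library and 812 to 3848 per CD8 library. Libraries also shared clonotypes. Mutant TET 4 and WT TET 2 shared 2 nucleotide sequences of these segments, which held 42.3% of the counts of the 4 segments in mutant TET 4 and 8.66% in WT TET 2. Mutant TET 2 shared 46 sequences with mutant TET 3 and 30 with mutant TET 1, and 1 sequence shared by mutant TET 2 and WT TET 2 held 66.3% of the counts of the 4 segments in WT TET 2. Whether these are separate cells or material carried between libraries was not tested.

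Of the 4 segments, TRBJ2-1 was the most reduced among tetramer-bound cells. It made up 8.53, 10, 9.14 and 8.91% of the clonotypes in mutant TET libraries 1 to 4 and 10.8, 6.35 and 15.5% in WT TET libraries 1 to 3, against a lowest value of 13.2%, a median of 13.7% and a highest value of 15.3% over the 8 CD8 libraries. Every TET library except WT TET 3 lay below every CD8 library, and WT TET 3 lay above them. The log2 fold change of TET over CD8 was −0.53 (SE 0.08, 95% interval −0.69 to −0.37, edgeR quasi-likelihood test with Benjamini-Hochberg adjustment over 12 segments, adjusted p = 5.03e-09). TET and CD8 differed in 11 of the 12 J segments of this fit (91.7%), so a call by itself did not set a segment apart.

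TRBJ2-5 and TRBJ2-2 were lower in TET cells by less. TRBJ2-5 made up 7.92, 10.1, 9.44 and 9.16% of clonotypes in mutant TET libraries and 9.80, 6.35 and 10.3% in WT TET libraries, against 10.3, 11.2 and 11.8% as the lowest, median and highest of the CD8 libraries. All TET libraries except WT TET 3 lay below every CD8 library. The log2 fold change of TRBJ2-5 was −0.27 (SE 0.08, edgeR adjusted p = 0.00244). TRBJ2-2 had 5.22, 5.09, 5.33 and 5.60% in mutant TET libraries and 5.88, 7.94 and 6.19% in WT TET libraries, against 5.78, 6.66 and 6.89% in CD8 libraries. The mutant TET libraries were all below the CD8 libraries and the WT TET libraries were not. The fit over both strains gave −0.29 for TRBJ2-2 (SE 0.10, edgeR adjusted p = 0.00845), and this call was lost without mutant TET 2 (−0.25, adjusted p = 0.056) and without clonotypes of a single count (−0.19, adjusted p = 0.135).

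TRBJ2-3 gave no call, with a log2 fold change of −0.03 (SE 0.09, 95% interval −0.21 to 0.16, edgeR adjusted p = 0.773). Its shares were 9.43, 6.91, 7.91 and 7.12% in mutant TET libraries and 5.88, 7.94 and 9.28% in WT TET libraries, against 7.47, 7.80 and 8.62% as the lowest, median and highest of the CD8 libraries. TET values fell on both sides of the CD8 range. In CD8 cells the order of the 4 segments was TRBJ2-1, TRBJ2-5, TRBJ2-3 and TRBJ2-2 in both strains, and the ranges of neighbours in that order did not overlap over the 8 libraries. In TET cells the ranges of all neighbours overlapped.

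**Figure D1:**
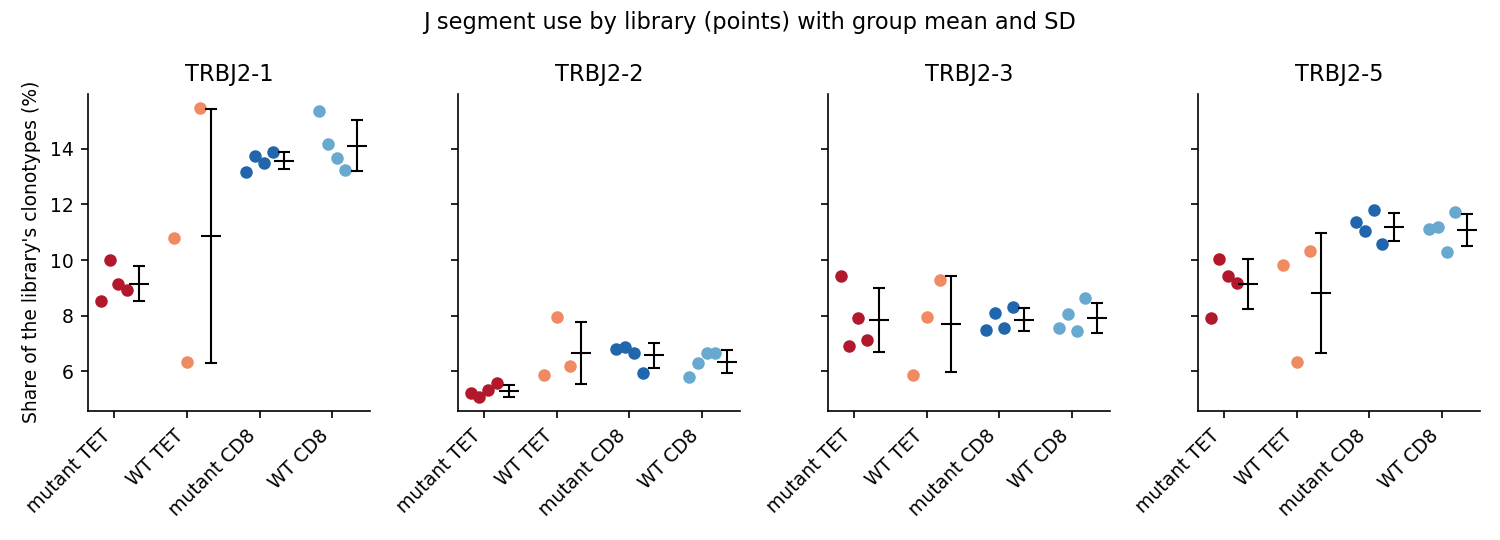
Share of each library's clonotypes (vertical axis, percent, starting above 0) for the 4 segments; points are libraries and bars are the group mean with SD (n = 4, 3, 4 and 4). TRBJ2-1 averages 9.14% in mutant TET and 10.9% in WT TET, against 13.6% in mutant CD8 and 14.1% in WT CD8, while TRBJ2-3 lies between 7.70 and 7.92% in all 4 groups.

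None of these calls held in the wild type alone or by counts. WT mice alone gave −0.41 for TRBJ2-1 (edgeR adjusted p = 0.282), −0.36 for TRBJ2-5 (adjusted p = 0.344) and 0.07 for TRBJ2-2, with 1 of 12 segments called and none of these 4. That fit rests on 3 small TET libraries. When each clonotype was weighted by its counts, none of the 12 segments was called, with −0.92 for TRBJ2-1 (adjusted p = 0.147), −1.22 for TRBJ2-5 (adjusted p = 0.227) and 0.12 for TRBJ2-2.

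The Ifngr1 mutation was compared with the wild type inside each fraction. In TET cells 0 of 12 segments were called (0.0%; 4 had an unadjusted edgeR p under 0.05). The log2 fold changes of mutant over WT were −0.17 with TRBJ2-1 (95% interval −0.70 to 0.37), −0.37 with TRBJ2-2 (−0.97 to 0.23), 0.01 with TRBJ2-3 (−0.59 to 0.62) and 0.11 with TRBJ2-5 (−0.43 to 0.66). Each interval holds 0 and is wide beside the differences between TET and CD8. In CD8 cells 1 of 12 segments was called (8.33%) and it was none of the 4. Mean shares of TRBJ2-1, TRBJ2-2, TRBJ2-3 and TRBJ2-5 were 13.6 ± 0.31, 6.58 ± 0.44, 7.86 ± 0.40 and 11.2 ± 0.51% in mutant CD8 libraries, and 14.1 ± 0.90, 6.35 ± 0.42, 7.92 ± 0.53 and 11.1 ± 0.59% in WT CD8 libraries (SD, n = 4 each). The strain effect differed between TET and CD8 in 5 of 12 segments (41.7%), again in none of the 4.

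In CD8 cells, TRBJ2-1, TRBJ2-2 and TRBJ2-5 each had V partners that other J segments of the same library used more or less. TRBV15 was 1.73 ± 0.52% of TRBJ2-5 clonotypes and 3.75 ± 0.33% of all other clonotypes of the same 8 CD8 libraries (SD), a log2 ratio of −1.12, and the ranges of 1.18 to 2.70% and 3.38 to 4.25% did not overlap. With TRBJ2-1 the same family stood at 4.78 ± 0.78%, against 3.30 ± 0.31% elsewhere, and with TRBJ2-2 at 4.89 ± 1.37%, against 3.41 ± 0.30% elsewhere. With TRBJ2-3 it stood at 4.56%, against 3.42% elsewhere, higher in 6 of 8 libraries, without a call (exact permutation adjusted p = 0.107). TRBV15 was thus less common with TRBJ2-5 and more common with TRBJ2-1 and TRBJ2-2.

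TRBV19 and TRBV20 were also scarce with TRBJ2-5. TRBV19 was 4.05 ± 1.02% there, against 6.28 ± 0.51% elsewhere, and TRBV20 was 1.07%, against 1.83%. TRBV16 (9.72%, against 7.69%), TRBV14 (6.80%, against 5.02%), TRBV5 (6.61%, against 5.40%) and TRBV29 (6.91%, against 5.86%) were higher with TRBJ2-5. TRBV13, the largest family, was lower with TRBJ2-2 (29.2%, against 35.4%) and TRBJ2-1 (31.0%, against 35.6%). TRBV19 was higher with TRBJ2-2 (7.56%, against 5.92%), TRBV17 was higher with TRBJ2-1 (5.23%, against 3.87%), and TRBV29 was lower with TRBJ2-1 (4.98%, against 6.15%).

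Each of these 14 differences had the same direction in 8 of 8 CD8 libraries. An exact sign-flip permutation test over the 8 libraries, two-sided, gave each the smallest p it allows (0.0078125) and an adjusted p of 0.0335 over 180 tests of 15 V families and 12 segments. The test called 42 of the 180 (23.3%), 18 higher (10%) and 24 lower (13.3%), while the 4 segments had 8 higher and 6 lower calls in 60, none of them with TRBJ2-3. It was chosen after the values were seen. Of the 14 calls, 7 remained without clonotypes of a single count and 13 without possible carry-over, and no direction turned. With any 1 CD8 library left out, the lowest adjusted p was 0.0521, so none of the 14 calls held, and again no direction turned. The smallest p that the test allows rises with fewer libraries. The loss therefore cannot show whether a call rests on a single library.

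**Figure D2:**
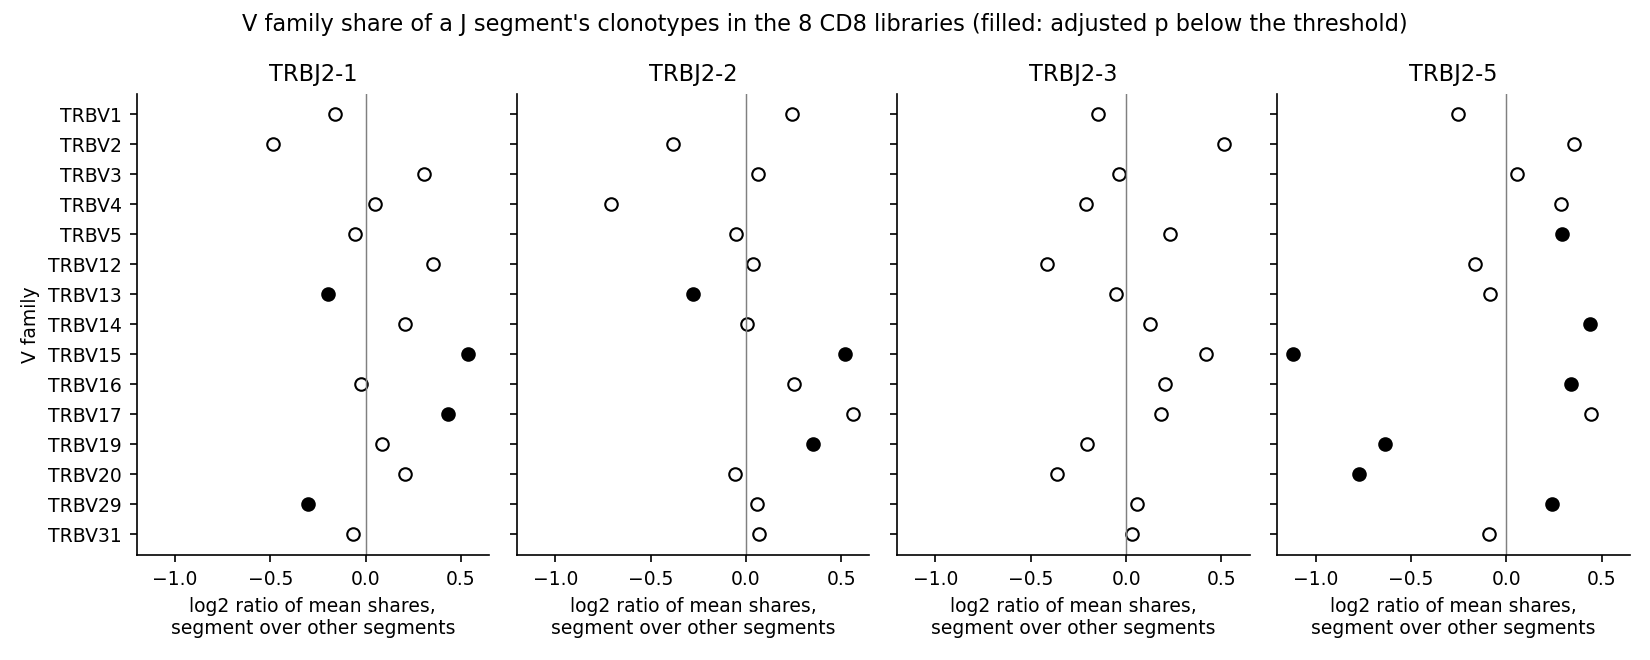
Log2 ratio of mean V family shares (horizontal axis), in the segment over all other segments of the same 8 CD8 libraries; filled points have an adjusted p below the threshold of 0.05. TRBV15 lies at −1.12 with TRBJ2-5 and at 0.54 with TRBJ2-1, and no point is filled for TRBJ2-3.

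Among tetramer-bound cells, TRBV13 took a larger part of TRBJ2-1, TRBJ2-2 and TRBJ2-3 receptors. Of TRBJ2-1 clonotypes, TRBV13 made up 40.0, 40.5, 46.3 and 51.4% in mutant TET libraries and 63.6, 75.0 and 60% in WT TET libraries, against 27.8, 30.8 and 35.5% as the lowest, median and highest of the CD8 libraries. Every TET library lay above every CD8 library. The log2 fold change of the share within the segment was 0.55 (SE 0.10, edgeR adjusted p = 1.51e-06).

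With TRBJ2-2, TRBV13 stood at 44.2, 42.0, 49.4 and 45.5% in mutant TET libraries and at 16.7, 70 and 50% in WT TET libraries, against 25.1, 29.0 and 34.8% in CD8 libraries. The low WT TET library had 6 TRBJ2-2 clonotypes. The log2 fold change was 0.66 (SE 0.13, edgeR adjusted p = 1.62e-05). With TRBJ2-3 the mean share of TRBV13 was 44.1 ± 12.4% in TET libraries and 33.8 ± 3.14% in CD8 libraries (SD, n = 7 and 8), a log2 fold change of 0.39 (edgeR adjusted p = 0.00276). With TRBJ2-5 the means were 39.7 ± 10.6% and 33.2 ± 2.92%, and the fold change of 0.19 did not pass the test (95% interval −0.02 to 0.41, edgeR adjusted p = 0.11).

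TRBV1 and TRBV5 rose with several of the segments as well. TRBV1 was 16.0 ± 8.83% of TRBJ2-5 clonotypes in TET libraries (7.79 to 30.0%) and 5.24 ± 1.10% in CD8 libraries (3.52 to 7.06%), with no overlap, and its log2 fold change was 0.97 (SE 0.26, edgeR adjusted p = 0.000573). It rose also with TRBJ2-1 (0.97, adjusted p = 0.000173), TRBJ2-2 (0.73, adjusted p = 0.0203) and TRBJ2-3 (0.78, adjusted p = 0.00735). TRBV5 rose with TRBJ2-5 (1.01, adjusted p = 9.45e-05), TRBJ2-3 (1.00, adjusted p = 0.000332) and TRBJ2-1 (0.80, adjusted p = 0.00316). Mean TRBV5 shares were 12.1 ± 6.71, 10.6 ± 8.07 and 8.74 ± 4.65% in TET libraries, against 6.61 ± 0.94, 6.42 ± 1.12 and 5.36 ± 1.21% in CD8 libraries. Several of these calls rested on 1 library: TRBV1 with TRBJ2-2 was lost without mutant TET 3 (adjusted p = 0.0675) or mutant CD8 3 (0.0517), TRBV1 with TRBJ2-3 without mutant TET 2 (0.0687), and TRBV5 with TRBJ2-1 without mutant TET 2 (0.0615).

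TRBV16 and TRBV12 were nearly missing from the tetramer-bound receptors of all 4 segments, and TRBV15 from those of TRBJ2-1 and TRBJ2-2. TRBV16 had 1 of 523 TRBJ2-1, 1 of 295 TRBJ2-2, 2 of 428 TRBJ2-3 and 3 of 518 TRBJ2-5 clonotypes summed over the TET libraries, against 595 of 7366, 324 of 3500, 372 of 4285 and 574 of 6000 over the CD8 libraries. The fitted log2 fold changes were −5.30 (95% interval −6.51 to −4.09), −4.59 (−6.03 to −3.15), −4.04 (−5.24 to −2.84) and −4.02 (−4.96 to −3.09), with edgeR adjusted p of at most 5.08e-09. With so few TET clonotypes, these pairs could pass the filter on low counts only with the CD8 libraries, where they are high. A lower call was thus favoured in advance, and its p adds no support beyond the clonotype numbers. The same holds for the calls of TRBV12 with TRBJ2-5 and TRBV15 with TRBJ2-1 that follow. TRBV16 with TRBJ2-2 passed the filter in 9 of the 15 fits with 1 library left out. TRBV12 had none of 523 TRBJ2-1 clonotypes in TET libraries, which allows up to 0.574%, against 588 of 7366 (7.98%) in CD8 libraries. It was therefore at least 13.9-fold lower, with the floor of 3 clonotypes taken over the group. The same floor made TRBV12 at least 6.32-fold lower with TRBJ2-2 and at least 6.73-fold lower with TRBJ2-3, whereas with TRBJ2-5 it had 3 of 518 clonotypes, against 335 of 6000 (log2 fold change −3.18, edgeR adjusted p = 2.59e-07). TRBV15 had 2 of 523 TRBJ2-1 clonotypes, against 353 of 7366 (−3.60, edgeR adjusted p = 2.62e-07), and none of 295 TRBJ2-2 clonotypes, at least 5.03-fold lower. With TRBJ2-3 it had 4 of 428 clonotypes, against 202 of 4285, and with TRBJ2-5 it had 3 of 518, against 111 of 6000, and these 2 pairs did not pass the filter on low counts.

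TRBV3, TRBV14, TRBV17 and TRBV29 fell by less. With TRBJ2-1, TRBV3 changed by −2.20 (edgeR adjusted p = 2.86e-05), TRBV17 by −1.94 (0.000145) and TRBV29 by −0.85 (0.0372). With TRBJ2-5, TRBV17 changed by −1.30 (0.00228), TRBV14 by −1.20 (0.00241) and TRBV29 by −0.76 (0.0232). TRBV29 with TRBJ2-1 was lost without any 1 of the mutant TET libraries, mutant CD8 2 or mutant CD8 3 (adjusted p = 0.0577 to 0.092), and with TRBJ2-5 without mutant TET 1 (0.103) or mutant TET 3 (0.0601). TRBV14 with TRBJ2-1 stood at −0.71 (adjusted p = 0.0526) and passed when mice were paired in the fit (replicate block, −0.73, adjusted p = 0.0407) or mutant TET 2 was left out (−0.999, adjusted p = 0.0401). TRBV19, tested with TRBJ2-1, TRBJ2-3 and TRBJ2-5, and TRBV4, tested with TRBJ2-1 and TRBJ2-5, gave no call, and neither could be tested with TRBJ2-2.

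In all, 42 of the 59 pairs of a V family and a J segment that passed the filter on low counts were called (71.2%), 21 higher (35.6%) and 21 lower (35.6%). Of the 30 tested pairs of these 4 segments, 10 were higher and 13 lower in TET libraries. TRBJ2-1 had 3 higher and 6 lower of 12, TRBJ2-2 2 and 1 of 3, TRBJ2-3 3 and 1 of 5, and TRBJ2-5 2 and 5 of 10. To pass, a pair had to reach a cutoff share of the clonotypes in as many single libraries as the smaller fraction has. The cutoff was the minimum count of 10 over the median library. The CD8 libraries alone could meet this, so pairs nearly missing from TET libraries were tested because they are high in CD8 libraries. The numbers of higher and lower calls therefore cannot be weighed against each other. The untested pairs are not pairs without a change.

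Whether a V family moved more with a segment than in the whole repertoire was tested with the family's and the segment's own totals as the offset. This called 1 of 59 pairs (1.69%) and none of the 30 pairs of these segments, whose lowest edgeR adjusted p was 0.333 (6 of 59 had an unadjusted p under 0.05). The 2 members nearest to a call were TRBV13 with TRBJ2-5, at −0.23 (unadjusted p = 0.032), and TRBV12 with TRBJ2-5, at 2.36 (unadjusted p = 0.026). The V changes of TET cells were thus not shown to be particular to any of the 4 segments.

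**Figure D3:**
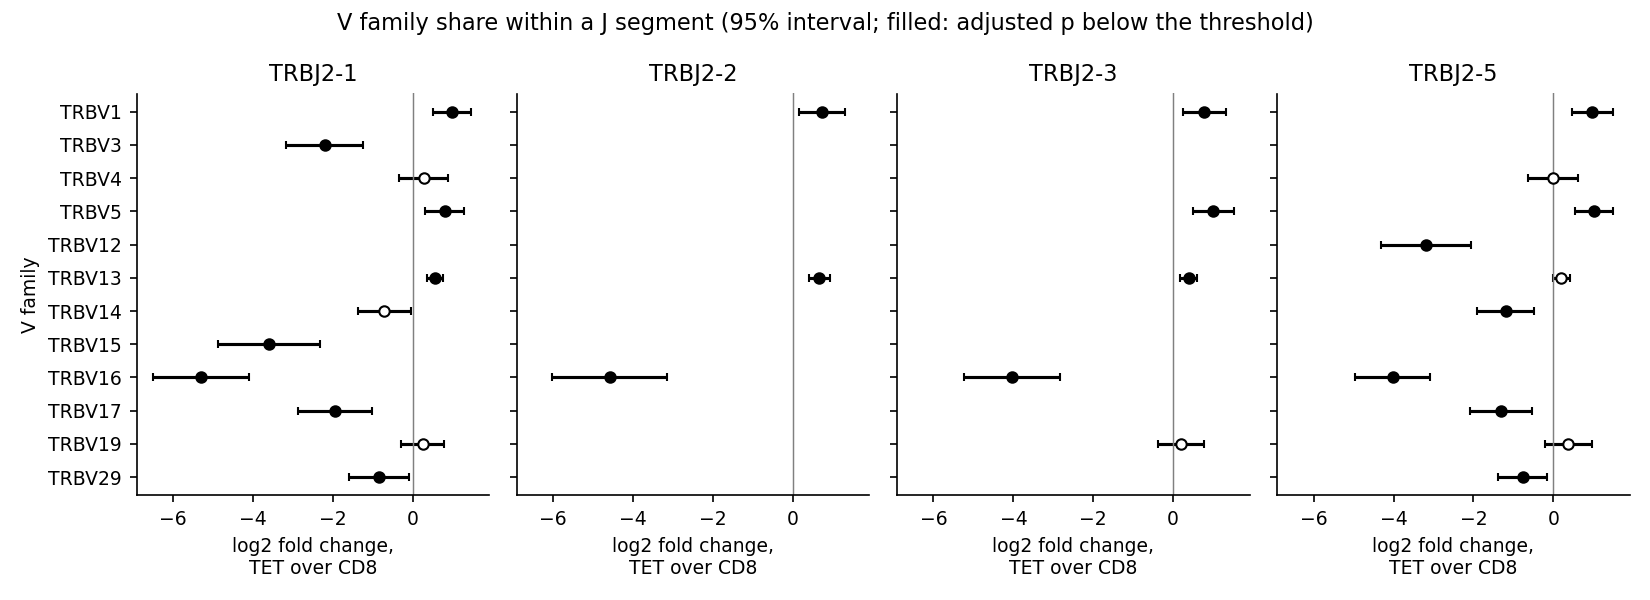
Log2 fold change, TET over CD8, of a V family's share of a segment's clonotypes (points) with its 95% interval (bars); filled points have an adjusted p below 0.05 and empty rows are pairs not tested. TRBV12 with TRBJ2-1 is left out because no TET library held it, and TRBV13, TRBV1 and TRBV5 lie right of 0 while TRBV16 lies at −4.02 or below.

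V families typical of other T cells that such a sort could hold were counted too. Families of the invariant NKT cell receptor (TRBV1, TRBV13 and TRBV29) summed to 68.5, 60.1, 58.2 and 59.1% of TRBJ2-1, TRBJ2-2, TRBJ2-3 and TRBJ2-5 clonotypes in TET libraries, against 41.6, 42.6, 45.6 and 45.3% in CD8 libraries. Families of the MAIT cell receptor (TRBV13 and TRBV19) summed to 59.0, 51.3, 49.7 and 44.4%, against 37.4, 36.8, 39.1 and 37.2%. The families of a list did not all move alike. TRBV29 was lower in TET libraries with TRBJ2-1 and TRBJ2-5, and TRBV19 gave no call where it was tested, with the limits given above. Conventional CD8 T cells use these families as well, and the part of such cells was not tested.

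In counts rather than clonotypes, TRBV13 held more of each segment. It took 80.1 ± 13.9% of TRBJ2-1 counts, 75.3 ± 29.7% of TRBJ2-2, 71.2 ± 17.2% of TRBJ2-3 and 53.9 ± 23.7% of TRBJ2-5 counts in TET libraries, against 45.5 ± 4.79, 41.2 ± 4.88, 48.2 ± 5.38 and 44.96 ± 4.60% in CD8 libraries (SD, n = 7 and 8). Between strains, TRBV13 was 44.5 ± 5.41% of TRBJ2-1 clonotypes in mutant TET and 66.2 ± 7.82% in WT TET libraries. The groups did not overlap, the log2 fold change was −0.53 and the edgeR test was not passed (unadjusted p = 0.115, adjusted p = 0.577). The WT TET values rest on 11, 8 and 15 TRBJ2-1 clonotypes. In TET libraries 10 pairs could be tested between strains and 0 were called (0.0%; 0 at an unadjusted edgeR p under 0.05), 4 of them pairs of these segments with TRBV13, and in CD8 libraries 0 of 128 were called (0.0%; 9 unadjusted).

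CDR3 length followed the segment and differed little between fractions. Lengths ran to 20 residues, starting at 9 for TRBJ2-1 and TRBJ2-5 and at 10 for TRBJ2-2 and TRBJ2-3. The means of TRBJ2-1, TRBJ2-2, TRBJ2-3 and TRBJ2-5 were 14.03 ± 0.37, 14.67 ± 0.21, 14.45 ± 0.35 and 13.99 ± 0.18 residues in TET libraries (SD, n = 7). In CD8 libraries they were 14.28 ± 0.03, 14.61 ± 0.03, 14.55 ± 0.08 and 14.01 ± 0.07 residues (n = 8).

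The differences of TET minus CD8 were −0.27, 0.09, −0.10 and −0.03 residues. An exact permutation test within strains, two-sided, called 1 of 12 segments (8.33%) and none of the 4, with an adjusted p of 0.168 for TRBJ2-1. Without WT TET 3 that segment was called (−0.42, adjusted p = 0.0171). The mode of TRBJ2-1 was at 14 residues in both fractions, and next to it 13 residues took 26.4 ± 17.7% of TET and 15.3 ± 1.30% of CD8 clonotypes, while 15 residues took 17.7% of TET and 28.1% of CD8 clonotypes. With TRBJ2-3, 13 residues took 19.3 ± 9.23% of TET and 11.6 ± 1.60% of CD8 clonotypes. With TRBJ2-2, 15 residues took 40.0 ± 14.7% of TET and 33.3 ± 1.63% of CD8 clonotypes.

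**Figure D4:**
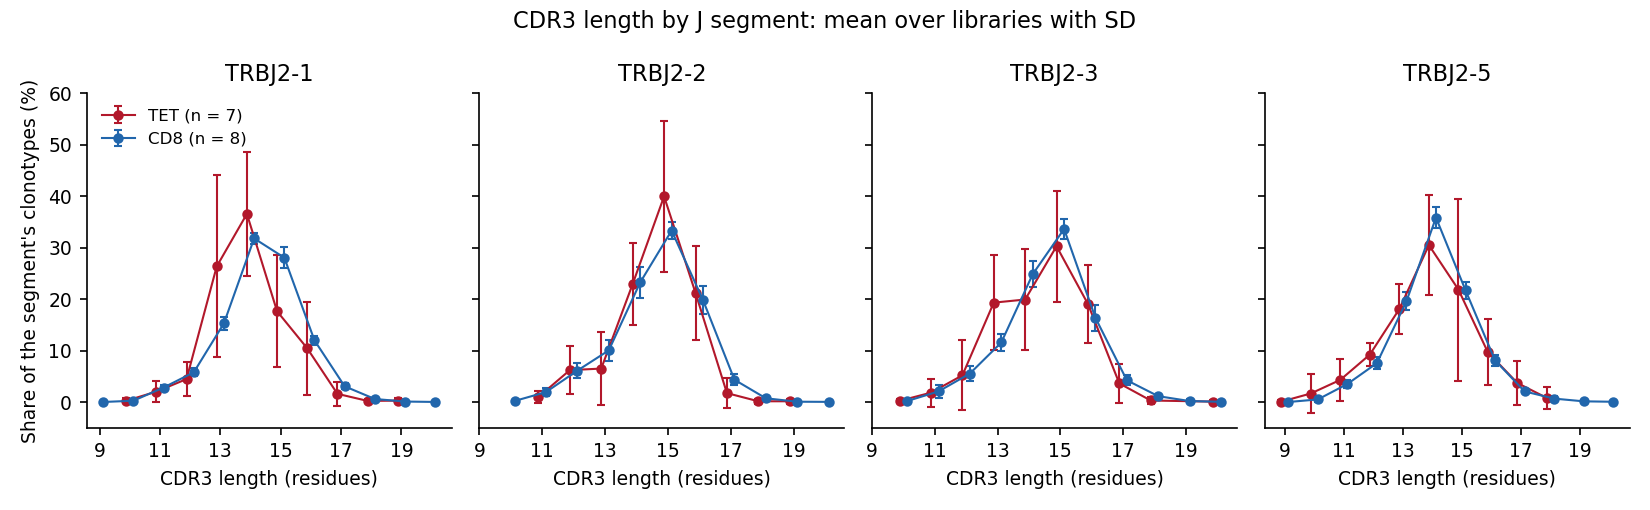
Share of a segment's clonotypes (vertical axis, percent) at each CDR3 length (horizontal axis, residues); points are means over 7 TET and 8 CD8 libraries and bars are SD, which reach below 0 where a mean is near 0. TRBJ2-1 has 26.4% of TET and 15.3% of CD8 clonotypes at 13 residues, with an SD of 17.7 over TET and 1.30 over CD8 libraries.

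TRBJ2-2 was 1 of 2 segments, with TRBJ2-7, whose mean length gave the smallest exact p between the strains among TET cells. Its mean CDR3 was 14.56, 14.37, 14.56 and 14.59 residues in mutant TET libraries and 15, 14.80 and 14.83 residues in WT TET libraries, without overlap. The difference was −0.36 residues (exact permutation p = 0.0286, the smallest that 4 against 3 allows, adjusted p = 0.171, 0 of 12 segments called, 0.0%). Bases kept are the unbroken run from the 3′ end along the most frequent base at each place. The run can extend 5′ of the printed stretch. There the most frequent base can differ from that of clonotypes matching all places nearer the 3′ end, as for TRBJ2-2. The run is therefore not a measure of J trimming alone. It again gave the smallest exact p with TRBJ2-2 and TRBJ2-7. For TRBJ2-2 they were 20.25, 20.77, 20.79 and 20.50 in mutant TET and 21, 21.50 and 21.67 in WT TET libraries (difference −0.81, exact permutation p = 0.0286, adjusted p = 0.171, 0 of 12 called, 0.0%). The WT values come from 6, 10 and 6 clonotypes. Bases kept differed between TET and CD8 in 0 of 12 segments (0.0%; 2 with an unadjusted exact permutation p under 0.05), though TRBJ2-2 was called without mutant TET 1 (0.58, adjusted p = 0.0392).

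The D segment named by the tables differed by segment. In CD8 libraries TRBJ2-2 had TRBD1 in 41.8 ± 2.52% and TRBD2 in 32.2 ± 2.68% of clonotypes, while TRBJ2-1 had 37.2 ± 1.99% and 46.9 ± 2.10%, TRBJ2-3 had 32.3 ± 2.31% and 44.0 ± 2.66%, and TRBJ2-5 had 34.4 ± 1.76% and 43.1 ± 1.13% (SD, n = 8). In CD8 libraries TRBJ2-2 was the single segment of the 4 with more TRBD1 than TRBD2, and in TET libraries it had 33.0 ± 11.3% and 39.2 ± 16.5% (n = 7). The strains differed in this: mutant TET had 40.3 ± 6.18% and 30.2 ± 8.30%, and WT TET 23.3 ± 8.82% and 51.1 ± 18.4% (n = 4 and 3). The WT TET values rest on 6, 10 and 6 TRBJ2-2 clonotypes, and this was not tested. In mutant TET libraries TRBJ2-1 also had more TRBD1 (42.6 ± 3.49%) than TRBD2 (37.7 ± 4.95%). Among TET cells, TRBD2 was named in 37.7 ± 4.95% of TRBJ2-1 clonotypes in mutant libraries and 68.0 ± 27.6% in WT libraries (SD, n = 4 and 3), which was not tested. In CD8 libraries no D segment was named in 15.9, 26.0, 23.6 and 22.6% of TRBJ2-1, TRBJ2-2, TRBJ2-3 and TRBJ2-5 clonotypes. The bases between the V and J parts averaged 10.1, 9.07, 9.25 and 9.76 in TET libraries, against 10.5, 9.30, 9.64 and 10.2 in CD8 libraries.

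Clone size, the log2 of a segment's share of counts over its share of clonotypes, is 0 where its clonotypes are as large as the library's average. All 4 segments stayed near 0 in every CD8 library. For TRBJ2-3 it was −0.61, −0.58, −0.67 and −5.64 in mutant TET and −0.78, −3.05 and 0.04 in WT TET libraries. For TRBJ2-5 it was −0.69, −0.78, −0.08 and −5.33 in mutant TET and −1.47, −3.72 and −0.08 in WT TET libraries. TRBJ2-5 was below 0 in all 7 TET libraries and TRBJ2-3 in all but WT TET 3, and both were lowest in mutant TET 4 and WT TET 2.

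The mean differences of TET minus CD8 were −1.59 for TRBJ2-3 and −1.73 for TRBJ2-5 (exact permutation within strains, two-sided, adjusted p = 0.0049 for both). The test called 7 of 12 segments (58.3%), 1 higher (8.33%) and 6 lower (50.0%), so a lower value was common among segments. With mutant TET 4 and WT TET 2 both left out, the differences were −0.52 and −0.64 (adjusted p = 0.0229 each) and 4 of 12 segments were called. A test paired by mouse (replicate block) called no segment (adjusted p = 0.0625 for both). In every mouse so paired, both segments had a lower value in the TET than in the CD8 library. With 128 sign flips, a segment at the smallest p this test allows can still miss the threshold after adjustment over 12 segments. The paired test therefore cannot settle these calls.

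TRBJ2-1 and TRBJ2-2 each held expanded clones in some TET libraries. Clone size of TRBJ2-1 was −0.50, 0.73, −0.27 and −1.32 in mutant TET and −0.80, −1.41 and −0.64 in WT TET libraries. The difference from CD8 was −0.65 (exact permutation adjusted p = 0.0329), and this call was lost when 11 of the 15 libraries were left out in turn, with differences of −0.83 to −0.49, and in the test paired by mouse (−0.61, adjusted p = 0.161). TRBJ2-2 had 0.09, 0.91, −0.91 and −1.19 in mutant TET and −2.19, 0.82 and 1.27 in WT TET libraries, on both sides of 0, with a difference of −0.15 (adjusted p = 0.785). Between strains 0 of 12 segments were called in TET libraries (0.0%; 1 with an unadjusted exact permutation p under 0.05) and 0 of 12 in CD8 libraries (0.0%; 0 unadjusted).

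**Figure D5:**
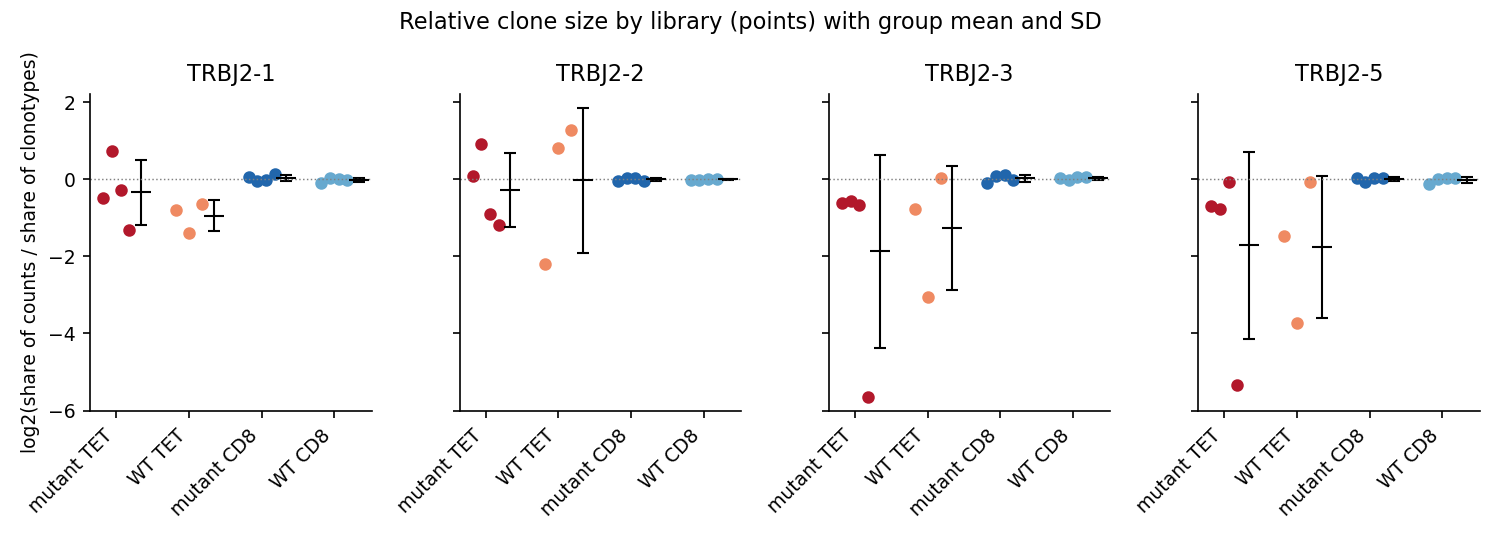
Clone size (vertical axis, log2 of share of counts over share of clonotypes) by library (points) with group mean and SD (n = 4, 3, 4 and 4); the dotted line marks 0. CD8 points lie near 0, while mutant TET 4 lies at −5.64 for TRBJ2-3 and −5.33 for TRBJ2-5.

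Clonotypes of at least 1% of a library numbered 10 with TRBJ2-1, 12 with TRBJ2-2, 6 with TRBJ2-3 and 6 with TRBJ2-5 over the TET libraries, and 0 with each segment over the CD8 libraries. WT TET 3 alone held 4, 5, 5 and 5 of them. A clonotype of average size is a larger part of a library with few clonotypes. WT TET 3 had 97 clonotypes and CD8 libraries had 2040 to 9827, so these numbers do not measure expansion alone. The largest clonotype held 7.11 to 64.9% of the TRBJ2-1 counts of a TET library, 11.6 to 84.4% with TRBJ2-2, 4.87 to 49.4% with TRBJ2-3 and 2.81 to 50.0% with TRBJ2-5. In CD8 libraries it held at most 5.29, 6.10, 4.28 and 5.86%. TET libraries held as few as 6 clonotypes of a segment and CD8 libraries no fewer than 118, which by itself raises the largest share in TET libraries.

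The largest TRBJ2-1 clone of every TET library was a TRBV13 receptor, of 13 residues in 5 libraries and of 16 residues in mutant TET 1 and WT TET 3. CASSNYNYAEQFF had 20, 2416, 85 and 34 counts in mutant TET libraries 1 to 4 and none in WT TET libraries 1 to 3, which allows up to 0.0604, 0.0201 and 0.118% of their counts. It also had 32 counts over 3 CD8 libraries. The 2416 counts were 10.8% of mutant TET 2 (95% exact binomial interval 10.4 to 11.2%, counting error only), and all 4 libraries held the same bases. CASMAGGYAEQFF had 862 counts in mutant TET 4 (1.43%) and 190 in WT TET 2 (1.27%), also with the same bases. The 20, 85 and 34 counts of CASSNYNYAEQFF are possible carry-over by the rule used, since another library held the same bases at 10 times the count or more. Both receptors are shown because each is a leading clone found in more than 1 library, with capitals marking the bases shared with the TRBJ2-1 end.
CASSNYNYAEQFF: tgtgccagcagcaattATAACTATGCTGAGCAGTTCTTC
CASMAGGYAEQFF: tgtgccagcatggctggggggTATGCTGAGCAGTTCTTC
Here and below, capitals follow the most frequent base among CD8 clonotypes that match all places nearer the 3′ end. In the first receptor the capitals start 5′ of the stretch printed above and no D segment was named. In the second, bases named TRBD2 lie between V and J.

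Other TRBJ2-1 receptors led in single mice. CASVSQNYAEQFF had 1121 counts in mutant TET 4 (1.86%), 1 count in WT TET 1 and 149 counts in 1 CD8 library. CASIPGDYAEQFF had 118 counts in mutant TET 3 (0.537%) and 36 in WT TET 2 (0.241%). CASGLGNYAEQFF had 65 counts in WT TET 1 (1.31%), where it led. The 16-residue leaders, printed because each was the largest of its library, had 168 counts in mutant TET 1 (0.971%), and 54 counts in WT TET 3 (2.13%) with 2 more in mutant TET 4.
Mutant TET 1: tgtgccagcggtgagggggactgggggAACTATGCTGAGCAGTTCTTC
WT TET 3: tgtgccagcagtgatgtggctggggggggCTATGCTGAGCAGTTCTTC
Both were TRBV13 receptors named TRBD2. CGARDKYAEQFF, a TRBV20 receptor, was in 3 TET libraries with 14 counts in mutant TET 1, 7 in mutant TET 2 and 8 in WT TET 3. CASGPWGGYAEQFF was in mutant TET 1, 3 and 4 with 1, 13 and 2 counts, through 2 nucleotide sequences.

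With TRBJ2-2, 1 receptor was shared by 4 TET libraries through several nucleotide sequences. A TRBV13 receptor of 15 residues had 49 counts in mutant TET 1, 1310 in mutant TET 4, 230 in WT TET 2 and 124 in WT TET 3. It also had 16 counts over 2 CD8 libraries. Whether its nucleotide sequences arose as separate rearrangements was not tested. In TET libraries the receptor was encoded by 4 nucleotide sequences that differ in a few bases before the J part, printed to show where they differ (capitals, bases shared with the TRBJ2-2 end).
Mutant TET 4 and WT TET 2: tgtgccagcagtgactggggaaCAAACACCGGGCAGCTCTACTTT
Mutant TET 4: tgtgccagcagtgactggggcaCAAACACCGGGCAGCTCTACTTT
WT TET 2 and WT TET 3: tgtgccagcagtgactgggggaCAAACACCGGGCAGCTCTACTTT
Mutant TET 1: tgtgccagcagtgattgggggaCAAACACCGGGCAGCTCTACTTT
The first had 766 counts in mutant TET 4 and 41 in WT TET 2, and the second had 544 counts in mutant TET 4. The third had 189 counts in WT TET 2 and 124 in WT TET 3, where it was 4.89% of the library (95% exact binomial interval 4.08 to 5.80%). The last had 49 counts in mutant TET 1.

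This receptor carries the residues DWG, which the tables placed with TRBD2. The motif was looked for in all TRBV13 receptors of the 4 segments after its values were seen. It was in 46 of 743 TRBV13 clonotypes of the TET libraries (6.19%), against 510 of 6680 of the CD8 libraries (7.63%). With TRBJ2-2 it was in 11 of 134 (8.21%), against 53 of 1007 (5.26%). These are clonotypes pooled over libraries, and no test over libraries was run. With TRBJ2-2 the motif's share of TRBV13 clonotypes ran from 0% in WT TET 1 (1 clonotype) to 33.3% in WT TET 3 (1 of 3). In CD8 libraries it ran from 2.44 to 7.59%. Pooled over the 4 segments the motif was no more common in TET than in CD8 libraries, while in mutant TET 4 it held 90.4% of the TRBV13 counts of TRBJ2-2.

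The other leading TRBJ2-2 receptors were each large in 1 mouse. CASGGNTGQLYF had 1767 counts in WT TET 2, 11.8% of the library (95% exact binomial interval 11.3 to 12.3%), and 4 counts in mutant TET 2. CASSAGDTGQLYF had 724 counts in mutant TET 2 (3.23%) and 3 in mutant TET 1. The first keeps the whole printed TRBJ2-2 end behind a short junction.
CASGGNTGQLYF: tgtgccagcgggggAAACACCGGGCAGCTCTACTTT
WT TET 3 also held a TRBV13 receptor of 16 residues with 89 counts (3.51%), among the 3 TRBJ2-2 receptors with the highest mean share of TET counts, and mutant TET 1 was led by a TRBV13 receptor of 15 residues with 276 counts (1.60%).
WT TET 3: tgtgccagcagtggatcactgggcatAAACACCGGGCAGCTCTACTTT
Mutant TET 1: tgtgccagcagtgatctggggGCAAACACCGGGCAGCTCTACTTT
The leaders of the remaining libraries were smaller. A TRBV1 receptor of 16 residues led WT TET 1 with 28 counts (0.564%), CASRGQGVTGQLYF led mutant TET 3 with 72 counts (0.328%), and a TRBV1 receptor of 15 residues was in mutant TET 1, 2 and 3 with 16, 3 and 5 counts.

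TRBJ2-3 clones of at least 1% of a library were found in WT TET 1 and WT TET 3, and all named TRBJ2-3 receptors used TRBV13. The 3 with the highest mean share of TET counts were in WT TET 3. A receptor of 17 residues had 61 counts (2.41%) and a receptor of 15 residues had 45 (1.77%). Another receptor of 15 residues had 42 counts in WT TET 3 (1.66%) and 15 in mutant TET 3 (0.0683%), with the same bases in both.
17 residues: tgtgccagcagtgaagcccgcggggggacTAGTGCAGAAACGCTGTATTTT
15 residues, WT TET 3 alone: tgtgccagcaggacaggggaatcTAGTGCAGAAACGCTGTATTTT
15 residues, both libraries: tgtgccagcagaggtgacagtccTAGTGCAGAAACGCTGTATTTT
All 3 keep the whole printed TRBJ2-3 end. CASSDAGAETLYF led WT TET 1 with 84 counts (1.69%), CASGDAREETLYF led mutant TET 3 with 68 (0.310%), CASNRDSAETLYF led mutant TET 2 with 57 (0.254%), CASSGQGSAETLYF led mutant TET 1 with 52 (0.301%) and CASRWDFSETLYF led WT TET 2 with 42 (0.281%). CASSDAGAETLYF also had 30 counts over 3 CD8 libraries. In mutant TET 4 the leader, of 16 residues, had 15 counts (0.0249%). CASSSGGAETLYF was in 3 mutant TET libraries with 29, 3 and 2 counts in mutant TET 1, 2 and 3, through 2 nucleotide sequences. Whether these arose as separate rearrangements was not tested, and both are printed to show where they differ.
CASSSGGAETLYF, first: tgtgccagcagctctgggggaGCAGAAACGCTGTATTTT
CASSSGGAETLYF, second: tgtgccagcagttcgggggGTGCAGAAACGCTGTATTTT
Mutant TET 3 held both, with 1 count each.

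TRBJ2-5 had its large clone in another V family. A TRBV4 receptor of 15 residues had 962 counts in mutant TET 3, 4.38% of the library (95% exact binomial interval 4.11 to 4.66%), and 51 in mutant TET 4. It was the largest TRBJ2-5 clonotype in both libraries and is printed for that reason, with capitals for the bases shared with the TRBJ2-5 end.
TRBV4 receptor: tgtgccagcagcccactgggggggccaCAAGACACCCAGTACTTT
The leaders of the other TET libraries were TRBV13 receptors, each found in 1 TET library. In WT TET 3, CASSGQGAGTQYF had 61 counts (2.41%) and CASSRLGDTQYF had 53 (2.09%), and that library held 5 of the 6 TRBJ2-5 clonotypes of at least 1%. A receptor of 14 residues led WT TET 1 with 40 counts (0.805%), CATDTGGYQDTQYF led mutant TET 1 with 55 (0.318%), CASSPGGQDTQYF led WT TET 2 with 36 (0.241%) and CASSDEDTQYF led mutant TET 2 with 37 (0.165%). A TRBV13 receptor of 16 residues was in mutant TET 1, 2 and 4 with 4, 9 and 3 counts, through 2 nucleotide sequences.

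Receptors, taken as a V family with its CDR3 residues, were shared between TET libraries at 8.90% with TRBJ2-1 (42 of 472 in at least 2 libraries), 9.13% with TRBJ2-2 (24 of 263), 5.32% with TRBJ2-3 (21 of 395) and 5.58% with TRBJ2-5 (27 of 484). Of the TET receptors, 17.6, 15.6, 17.0 and 17.4% were also in a CD8 library. Some of the receptors named above were among these, and their CD8 counts are not given for every one. The shares of CD8 receptors found in at least 2 CD8 libraries were 5.49, 3.80, 5.21 and 5.72%. TET and CD8 libraries differ in number and depth, so these shares were not compared by a test.

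Across the 8 CD8 libraries, the segment whose share varied most like TRBJ2-1 was TRBJ1-5 (Pearson r = 0.85), and the next was TRBJ2-7 (0.48). TRBJ2-2 was most like TRBJ1-4 (0.48), TRBJ2-3 most like TRBJ2-4 (0.39) and TRBJ2-5 most like TRBJ2-2 (0.28). These are descriptions over 8 points, and shares of 1 library are not independent because they sum to a fixed total.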

How the data were processed

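Beta chains were read by 5′ RACE with 9-base molecular identifiers and nested PCR, then sequenced on a MiSeq, per the labels' protocols. Each deposited table lists 1 library's clonotypes with a count, a fraction of the library, the V family, D segment, J cluster and CDR3. The authors made the counts, and whether these are reads or molecules is not given in the sources used here, nor are the aligner, the caller and the build. The deposited fractions were used to check the tables' completeness, since tables sum to less than 1. Intervals and floors cover counting error only. Replicates of 1 fraction come from different mice, per the series' design text.

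The analysis dropped 4 alpha chain rows holding 6 counts, and 2077 clonotypes (3.50%) had no J segment under the rule. Shares of clonotypes were fitted for all 12 segments, and for all V-J pairs, with edgeR 4.0.16 in R 4.3.3 (quasi-likelihood test, minimum count 10, no further scaling, Benjamini-Hochberg adjustment, threshold 0.05). edgeR raises a p where the spread is below that of counting, so SEs and intervals, which come from its F statistic, can be narrower than the p. Length, clone size and bases kept were tested over libraries by exact permutation within strains (scipy 1.17.1), adjusted over 12 segments. V families named had at least 5% of a segment's clonotypes or a call. Receptors named were the 3 largest by mean TET share, those in at least 3 TET libraries and the largest of each segment in each TET library. Alternatives were DESeq2 1.42.0, TMM scaling, other filters, left-out libraries, subsampling to 2536 counts and the mouse as a block. For the pairing, a strain's TET and CD8 libraries with 1 number were treated as 1 mouse, from the design's 4 mice per strain. Their deviations in J use correlated at −0.71 to 0.51 (12 segments, 7 mice). The members and lists were chosen with earlier results of these data known. The edgeR fits and the exact permutation tests between groups were tested on simulated data.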

Additional observations from a re-analysis of the deposited data

Results flagged for a closer look

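In groups of 4 libraries, 3 of 60 values had 1 library far from the rest by Dixon's criterion, which chance gives in about 1 of 20 groups. Clone size of TRBJ2-3 was −5.64 in mutant TET 4, while the other mutant TET libraries lay at −0.67 to −0.58. Clone size of TRBJ2-5 was −5.33 in the same library, while the others lay at −0.78 to −0.08. Mean CDR3 length of TRBJ2-2 was 14.37 residues in mutant TET 2, while the others lay at 14.56 to 14.59. In mutant TET 4 all 4 segments together held 6.39% of the counts, against 22.7 to 36.6% in the other mutant TET libraries. WT TET, with 3 libraries, was not examined in this way.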

How the results depend on the processing

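Results rest on shares of small TET libraries, and 97 to 126 clonotypes per WT TET library limit every value of that group. Of the alternatives for single segments and pairs, 1003 kept direction and side of the threshold, 43 turned direction, 35 lost a call and 12 gained one. The cause was not tested unless a setting's own construction is named. Segments called between TET and CD8, 11 of 12, were 0 weighted by counts and 1 in WT mice alone (fewer libraries); those called between strains in CD8, 1 of 12, were 0 weighted by counts, with TMM, with DESeq2 and with the replicate block, and 0 to 2 with 1 library left out; those whose strain effect differed between fractions, 5 of 12, were 2 without single counts, 0 without WT TET 2 and mutant TET 4, 0 without possible carry-over and 0 to 6 with 1 library left out. V shares within segments, 42 of 59, became 82 of 109 with a minimum count of 5, 81 of 117 without both libraries and 39 to 71 with 1 library left out, since the filter then passes more pairs. Pairs beyond their margins, 1 of 59, were 2 with a minimum count of 5, 0 without both libraries and 1 to 2 with 1 library left out, and 0 to 1 between strains in CD8. Length calls, 1 of 12, were 0 without single counts, 3 weighted by counts, 0 with the replicate block, 0 without both libraries and 0 to 4 with 1 library left out. Clone size calls, 7 of 12, were 0 with the block, 4 without both libraries and 4 to 8 with 1 library left out. For length and clone size, the 128 sign flips of the block limit how low its adjusted p can go. Calls on bases kept, 0 of 12, were 0 to 1.

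Directions turned as follows. TRBJ2-2 use turned to 0.12 weighted by counts and 0.066 in WT mice alone, and TRBJ2-3 use spanned −0.10 to 0.060 with 1 library left out. Between strains in TET cells, TRBJ2-1 turned to 0.45 and TRBJ2-3 to −0.22 weighted by counts, TRBJ2-3 to −0.10 and TRBJ2-5 to −0.012 without possible carry-over, and TRBJ2-5 to −0.10 without both libraries, and leaving out 1 library spanned −0.49 to 0.16, −0.13 to 0.15 and −0.11 to 0.24 for TRBJ2-1, TRBJ2-3 and TRBJ2-5. TRBV4 with TRBJ2-5 turned to 0.058 with the block and 0.011 without both libraries, and spanned −0.35 to 0.19. TRBV4 with TRBJ2-1 spanned −0.078 to 0.49, and TRBV19 spanned −0.17 to 0.51 with TRBJ2-1 and −0.18 to 0.38 with TRBJ2-3. Length differences turned to −0.14 weighted by counts for TRBJ2-2, 0.074 without both libraries for TRBJ2-3 and 0.046 without single counts for TRBJ2-5, and the strain difference of TRBJ2-2 in TET to 0.24 weighted by counts. They spanned −0.21 to 0.059 for TRBJ2-3 and −0.067 to 0.033 for TRBJ2-5. Clone size of TRBJ2-2 spanned −0.48 to 0.39. Bases kept turned to 0.43 for TRBJ2-1 weighted by counts, −0.0073 weighted by counts and −0.033 with each receptor once for TRBJ2-3, and −0.010 with the other consensus and −0.30 without both libraries for TRBJ2-5, and spanned −0.32 to 0.17, −0.066 to 0.13 and −0.31 to 0.38. With the replicate block 10 of 12 segments were called between TET and CD8, and it changed no other call of these segments than those given here and in the results above.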

Other observations

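TRBV20 and TRBV31 were too rare with these segments to pass the filter on low counts and are given as levels. TRBV20 was 6.37 ± 5.90% of TRBJ2-2 clonotypes in TET libraries and 1.68 ± 0.56% in CD8 libraries, and 6.13 ± 4.84% and 1.07 ± 0.50% of TRBJ2-5 clonotypes (SD, n = 7 and 8). TRBV31, which lies behind the joining segments in inverted orientation, was 7.72 ± 5.68% of TRBJ2-3 clonotypes in TET libraries and 1.55 ± 0.60% in CD8 libraries. WT TET libraries of 97 to 126 clonotypes weigh in these means as much as larger libraries.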
